A study of Drosophila melanogaster with 2 samples.

Results

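The peaks described are 507 promoter sites of the CG4730-eGFP protein in Drosophila melanogaster embryos whose summit lies in AT-rich DNA. They were taken from the authors' pooled set of 3571 peaks, of which 2854 lay on the autosomal arms. Autosomal here means all major arms except X, and so includes Y, which had 0 peaks. A peak was kept when its summit lay within 500 bp of an annotated transcript start, did not lie between 2 divergent protein-coding starts at most 500 bp apart, and had 65% or more A or T over the summit base and the 50 bp to each side of it. The 507 peaks made up 14.2% of the pooled set and 17.8% of its autosomal peaks. The 377 autosomal promoter peaks that met the first 2 conditions with less than 65% A or T are called AT-poor below and serve as the comparison. The other 402 of the 1286 autosomal promoter peaks lay between divergent starts.

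The study mapped the protein by chromatin immunoprecipitation with sequencing (ChIP-seq) in 1 group of 2 biological replicates. Both came from whole transgenic embryos aged 0 to 24 h that expressed CG4730 fused to eGFP, an enhanced green fluorescent protein, and an antibody to GFP recovered the bound DNA. Chromatin was sheared by sonication to 200 to 800 bp. The mapped protein is therefore the tagged fusion, not the unmodified one, and there was no second genotype or stage, so every comparison below describes sets of sites and none tests a treatment. The control library was not analysed here, and no source used here gives the read depth behind the peaks. Whole embryos of this age range mix many cell types and stages, so strong binding in few cells and weak binding in many cells cannot be told apart.

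In fly promoters the DNA just upstream of an active start is often free of nucleosomes, and general transcription factors assemble there. A-T pairs melt more easily than G-C pairs, and long runs of A or T are stiff and are known, chiefly from yeast, to disfavour nucleosomes. Some DNA-binding proteins read short AT-rich motifs, such as the TATA box bound by TATA-binding protein or the TAATTA core bound by many homeodomain proteins, and others read the shape of the AT-rich minor groove without a strict motif.

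The windows below show what such sites look like. They span the summit and 50 bp to each side on dm6, read from the NCBI RefSeq genome, 5′ to 3′ on the strand of the gene with the nearest start, and capitals mark runs of 8 or more A or T. The first 6 are among the strongest peaks, chosen outside exons. CG14100 (chr3L:19590571-19590671, minus strand), CG18549 (chr3R:12449115-12449215, plus strand), RluA-1 (chr2L:10474481-10474581, minus strand) and CG13921 (chr3L:1746723-1746823, plus strand) had intergenic summits, and gish (chr3R:16280684-16280784, plus strand) and CG1635 (chr3R:31588480-31588580, plus strand) had summits in introns.
CG14100: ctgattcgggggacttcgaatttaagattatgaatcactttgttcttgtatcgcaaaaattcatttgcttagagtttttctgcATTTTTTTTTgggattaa
CG18549: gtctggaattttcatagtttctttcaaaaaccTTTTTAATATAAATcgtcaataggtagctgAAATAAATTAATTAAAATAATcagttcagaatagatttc
RluA-1: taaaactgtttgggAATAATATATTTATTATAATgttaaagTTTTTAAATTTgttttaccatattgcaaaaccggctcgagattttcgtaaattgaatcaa
gish: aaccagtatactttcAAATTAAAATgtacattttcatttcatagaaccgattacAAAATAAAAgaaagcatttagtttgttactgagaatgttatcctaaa
CG1635: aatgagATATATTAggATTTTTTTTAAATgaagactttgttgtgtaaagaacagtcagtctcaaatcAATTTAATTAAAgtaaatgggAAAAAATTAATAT
CG13921: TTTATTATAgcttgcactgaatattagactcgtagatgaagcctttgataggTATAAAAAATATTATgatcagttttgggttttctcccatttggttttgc
Mkp3 (chr3L:19086851-19086951, minus strand, intergenic) is shown for its high AT share, with 59 bases inside such runs, and Glyp (chr2L:2130573-2130673, plus strand, intergenic), which encodes glycogen phosphorylase, for the same reason, with 45.
Mkp3: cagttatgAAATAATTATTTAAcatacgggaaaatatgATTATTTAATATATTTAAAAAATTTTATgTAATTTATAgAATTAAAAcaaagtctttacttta
Glyp: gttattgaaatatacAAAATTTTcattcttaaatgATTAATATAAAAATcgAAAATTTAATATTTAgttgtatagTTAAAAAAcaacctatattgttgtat
Of the AT-poor peaks, CG1607 (chr3R:31384217-31384317, plus strand) is shown as a strong one, with 8 capital bases.
CG1607: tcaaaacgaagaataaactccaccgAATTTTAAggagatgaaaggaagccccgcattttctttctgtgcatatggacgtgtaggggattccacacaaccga
Hsc70-2 (chr3R:13044549-13044649, plus strand) and Cyp303a1 (chr2L:16293973-16294073, plus strand) are shown as AT-rich promoters with no pooled peak within 1000 bp. They were picked, after the data had been seen, for an AT share close to the mean of the bound windows, and are centred 160 bp upstream of the start. They hold 31 and 19 capital bases.
Hsc70-2: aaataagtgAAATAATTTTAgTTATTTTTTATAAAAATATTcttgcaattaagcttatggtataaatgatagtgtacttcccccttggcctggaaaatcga
Cyp303a1: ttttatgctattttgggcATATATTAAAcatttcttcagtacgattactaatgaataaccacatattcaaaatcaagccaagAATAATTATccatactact
Among the 6 strong windows the capital bases number from 10 at CG14100 to 46 at CG1635.

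AT-rich promoter peaks carried more signal than AT-poor ones. The signal is the authors' own value per peak, with no stated unit, and the rule did not use it to choose peaks from the pooled set. That set had already passed the authors' threshold on the irreproducible discovery rate, a measure of agreement between replicates. Both classes were therefore selected for reproducible peaks beforehand. The pooled signal of the 507 peaks had a median of 146 (quartiles 94.8 and 240), against 96.2 (quartiles 72.1 and 137) for the AT-poor peaks. The median of all autosomal peaks was 107.1. Each pooled peak was also given the signal of the overlapping peak in each replicate's ranked list, where the summits lay within 100 bp. These medians were 74.5 in replicate 1 and 75.3 in replicate 2 for AT-rich peaks, against 48.9 and 52.6 for AT-poor peaks. The 2 replicates differed by far less than the 2 classes did. Peaks between divergent starts had nearly the same values as the AT-rich peaks, with a pooled median of 143 and replicate medians of 76.0 and 71.1, so the higher signal was not particular to the AT-rich class.

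The same difference held when the rule was applied to each replicate's own thresholded set. Replicate 1 gave 375 AT-rich and 207 AT-poor peaks, and replicate 2 gave 404 and 260. The median signal was 89.2 ± 2.63 for AT-rich peaks and 65.7 ± 0.0744 for AT-poor peaks (SD, n = 2 replicates), a ratio of 1.36 ± 0.0415, which is smaller than the pooled ratio of 1.51. Each own set omits the peaks that were weak in that replicate. Among the 300 strongest peaks on the chromosome arms, X included, 82 were AT-rich promoter peaks (16.2% of the class, 95% Wilson interval 13.2 to 19.6%) and 28 were AT-poor (7.43%), while 61 lay between divergent starts (15.2% of those). The background over all autosomal peaks was 8.65%.

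AT-rich peaks were also found in both replicates more often. An overlap of at least 1 bp with both own sets was seen for 311 of 507 (61.3%, interval 57.0 to 65.5%), against 150 of 377 AT-poor peaks (39.8%, interval 35.0 to 44.8%) and a background of 48.2% over all autosomal peaks. Neither own set held 61 AT-rich peaks (12.03%), against 109 AT-poor peaks (28.9%). Another 135 AT-rich peaks were in 1 own set only. Peaks between divergent starts had a share in both sets close to that of the AT-rich peaks, at 62.9% (253 of 402), so this share does not set the AT-rich class apart from them. Within the AT-rich class the share in both sets rose steeply with signal. With the 507 peaks split by pooled signal into 4 parts, it was 3.94, 49.6, 92.9 and 99.2% from the weakest part to the strongest. The higher share of AT-rich peaks therefore cannot be read apart from their higher signal. Whether the AT-rich and AT-poor classes differ in this share at equal signal was not tested.

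**Figure D1:**
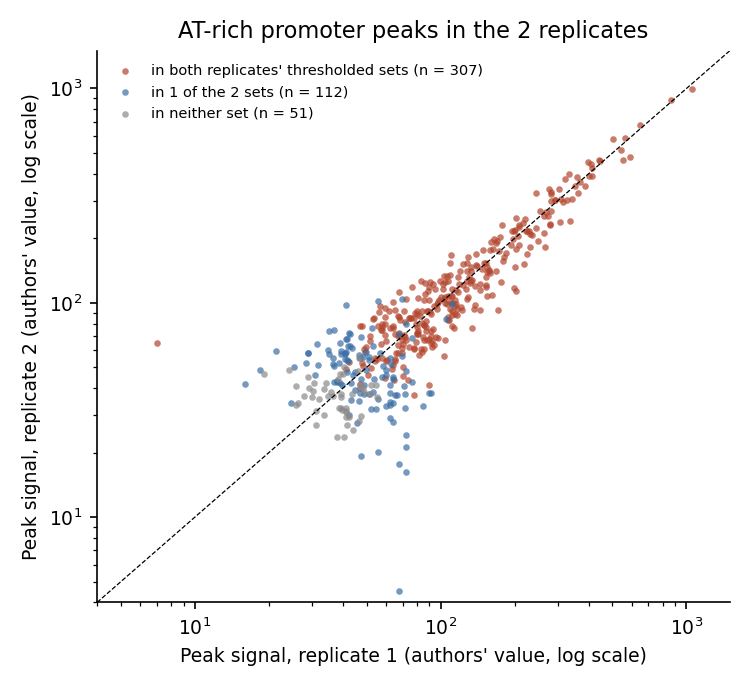
Each point is 1 of the 470 AT-rich promoter peaks with a matched peak in both ranked lists. The axes give the authors' peak signal in replicate 1 and replicate 2 on log scales, the dashed line marks equal values, and colours show in how many thresholded sets the peak lies. Points hug the line at high signal, and the 51 matched peaks in neither set lie at the low end.

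For the 470 AT-rich peaks matched in both replicates, the 2 signals differed by a median of 1.21-fold, and 27 differed by more than 2-fold. The median was 1.29-fold for the 336 matched AT-poor peaks. The rank correlation of the 2 replicates across sites was 0.855 for AT-rich peaks and 0.674 for AT-poor peaks. All sites share the same 2 libraries, and the AT-poor peaks span a narrower range of signal. The summits moved by a median of 10 bp in replicate 1 and 15.5 bp in replicate 2 from the pooled summit. The window at the replicate's own summit still reached 65% A or T for 440 of 481 peaks (91.5%) in replicate 1 and 446 of 488 (91.4%) in replicate 2, and in both for 397 of 470 (84.5%).

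The 3 peaks whose replicates differed most were at pav, TP53INP and Jheh1. The peak at pav, which encodes a kinesin needed for cytokinesis, had 67.7 in replicate 1 and 4.50 in replicate 2. The peak at TP53INP had 6.99 and 65.1. The peak at Jheh1, a juvenile hormone epoxide hydrolase, had 72.2 and 16.3. In each of these cases a stronger peak of the lower replicate overlapped the site with a summit farther away (33.7 at pav, 64.2 at TP53INP and 40.9 at Jheh1), so the size of the gap depends on how peaks were matched. In all, 34 AT-rich peaks overlapped another pooled peak, and 90 had another summit within 1000 bp. One of the 2 AT-rich peaks at Act87E, an actin gene, had a pooled signal of 12.1 beside a stronger one of 72.6.

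The strongest peak lay 97 bp upstream of CG14100 (FBgn0036889), an uncharacterized gene on chr3L, with 1049.6 in replicate 1 and 996 in replicate 2 (1023 ± 38.2, SD, n = 2, as for all values of this form below). Next was mRpL41, which encodes a protein of the large mitochondrial ribosomal subunit, with 868 and 883 (876 ± 10.9). The peak, at chr2R:15217592-15217892, lies within 500 bp of the starts of 2 genes. PNPase, a polynucleotide phosphorylase that degrades RNA in mitochondria, had 648 and 673 (661 ± 17.2) at chr3R:31404503-31404814, in an intron. These 3 sites stood above all other AT-rich peaks in both replicates.

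CG18549, uncharacterized, averaged 573 ± 17.1. The next peak belonged to px (plexus), known for its part in wing vein patterning, at 542 ± 57.2. Fkbp14, a prolyl isomerase of the FK506-binding family, averaged 529 ± 17.8, and GstE13, a glutathione S-transferase, 508 ± 59.6. RluA-1, a pseudouridine synthase, averaged 452 ± 9.02, and gish, a casein kinase 1 family member, 452 ± 13.8. Among the other peaks of the 20 strongest found in both sets, msi, the RNA-binding protein Musashi, averaged 368 ± 2.52, and Rtnl1, a reticulon of the endoplasmic reticulum, 367 ± 24.9. A non-coding gene, lncRNA:CR44339, averaged 366 ± 47.5, and osp (outspread) closed the 20 with 351 ± 2.08. The others were CG8320, CG1635, Tina-1, CG13921, CG11857, CG9147 and MFS18, between 373 ± 20.5 at MFS18 and 534 ± 74.8 at CG8320. The SD was small beside the mean in each of the 20, and all but CG8320 (91 bp) and CG9147 (17 bp) had their summit upstream of the nearest start.

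The summits of AT-rich peaks lay upstream of the start and away from it. Their median position was -160 bp (quartiles -267.5 and -93), where negative values are upstream, against -74 bp for AT-poor peaks. Upstream summits made up 432 of 507 (85.2%, interval 81.9 to 88.0%), against 261 of 377 AT-poor summits (69.2%, interval 64.4 to 73.7%). In the replicates' own sets the upstream share was 87.0 ± 1.85% for AT-rich peaks and 75.9 ± 1.45% for AT-poor peaks (SD, n = 2). Only 18 AT-rich summits (3.55%) fell within 50 bp of a start, against 73 AT-poor ones (19.4%). The stretch from 100 to 250 bp upstream held 231 AT-rich summits (45.6%) and 99 AT-poor summits (26.3%).

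**Figure D2:**
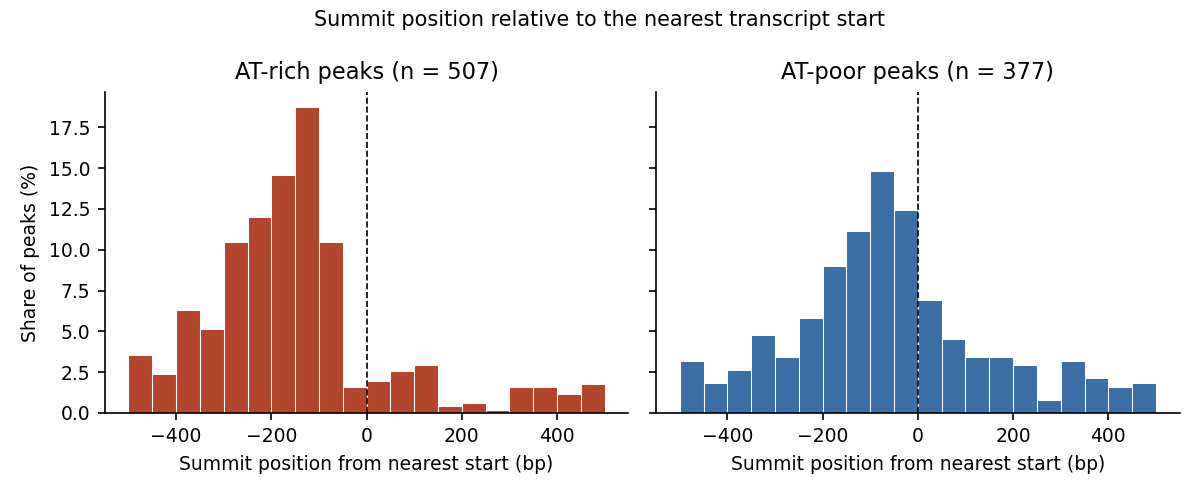
Share of summits in 50 bp bins of distance from the nearest transcript start, with upstream positions negative, for AT-rich peaks on the left and AT-poor peaks on the right. The dashed line marks the start. AT-rich summits pile up between 50 and 300 bp upstream (336 of 507, 66.3%) and drop off within 50 bp of the start, where AT-poor summits are frequent.

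This difference cannot be read apart from the base composition of promoters. Over all 9431 non-divergent autosomal protein-coding starts, the AT share averaged 63.0% in the 20 bp centred 150 bp upstream and 55.5% in the 20 bp centred 10 bp upstream. The same bins at the starts of AT-rich peaks averaged 66.0% and 52.3%. A rule on AT share therefore favours summits away from the start. Among summits within 100 bp of a start, 71.8% of 85 AT-rich and 70.5% of 146 AT-poor summits were upstream.

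The difference in signal was seen at each distance. Beyond 100 and up to 300 bp upstream, the replicate medians averaged 88.2 ± 2.47 for 283 AT-rich peaks and 61.5 ± 3.07 for 111 AT-poor peaks. Within 100 bp of the start they averaged 63.5 ± 2.11 for 85 AT-rich peaks and 50.2 ± 2.65 for 146 AT-poor peaks. Beyond 100 bp downstream the values were 64.1 ± 3.32 for 51 and 40.3 ± 0.712 for 73 peaks. Beyond 300 bp upstream they were 70.9 ± 1.93 for 88 and 50.1 ± 5.21 for 47 peaks. In each band the classes stood farther apart than the 2 replicates did, and AT-rich peaks between 100 and 300 bp upstream had the highest level of the 4.

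By annotation, 253 AT-rich summits (49.9%) were intergenic and 177 (34.9%) lay in introns. A further 35 lay in 5′ untranslated regions, 14 in 3′ untranslated regions and 28 in exons of non-coding genes. None lay in a coding exon, which with 507 summits allows a share of up to 0.752% (upper Wilson bound). The AT-poor peaks had 28 of 377 summits (7.43%) in coding exons and 69 (18.3%) in 5′ untranslated regions. Coding sequence is GC-rich in flies, so the rule itself bears on this count.

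The AT-rich DNA at these summits was short. The window averaged 72.9 ± 4.72% A or T (SD over 507 windows), which the rule set. The flanks, from 150 to 250 bp on either side, averaged 57.5 ± 7.12%, against 57.5 ± 7.11% at AT-poor peaks. The flank was lower than the window at 489 of 507 AT-rich peaks (96.4%) and reached 65% at 75. A window chosen for a high share tends to stand above its own flanks whatever is bound there. From 51 to 150 bp the AT-rich peaks averaged 64.3% upstream and 58.4% downstream, against 67.4% and 63.6% around AT-rich start windows with no peak. The AT-rich stretch at peaks was thus narrower, but the windows without a peak sat at a fixed 160 bp upstream and those of peaks on a summit. The windows without a peak are called unbound below, which means only that no pooled thresholded peak lay within 1000 bp. The pooled ranked list before the threshold held 143047 peaks, so weaker binding at these windows is not excluded. CG14100, the strongest site, was among the exceptions, with 68.3% in both window and flanks.

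**Figure D3:**
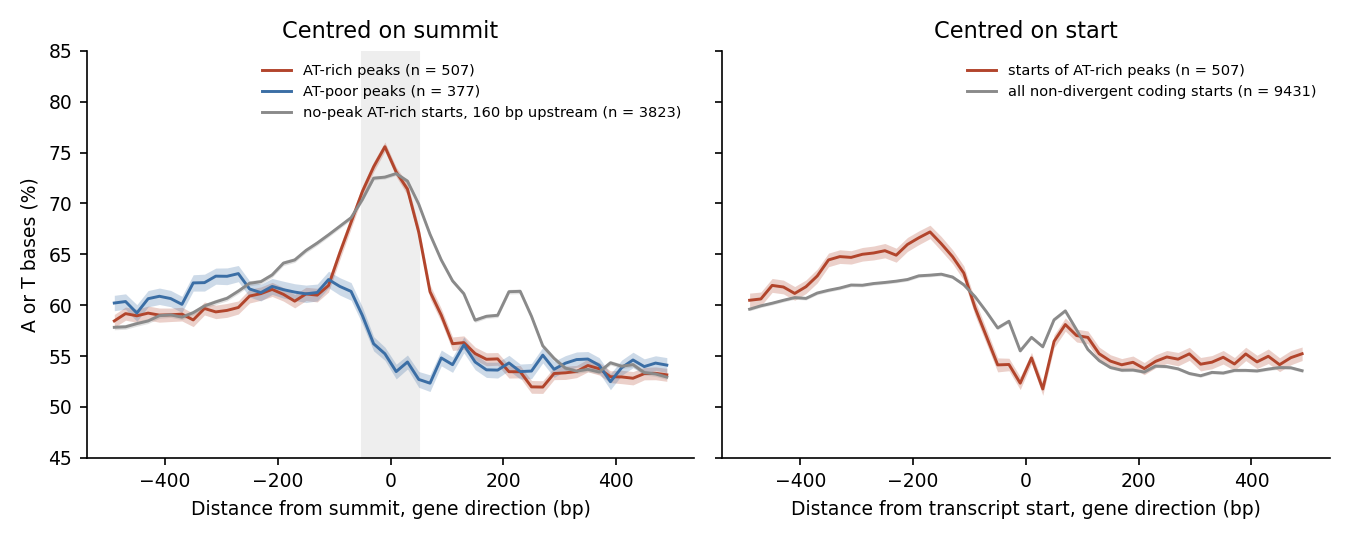
Mean share of A or T in 20 bp bins, read in the direction of the gene, with shading for the standard error over sites. On the left, 507 AT-rich peaks and 377 AT-poor peaks are centred on the summit and 3823 AT-rich starts without a peak on the point 160 bp upstream of the start, and the grey band marks the window the rule used. On the right, the starts of AT-rich peaks are set beside all 9431 non-divergent coding starts. The AT-rich peaks fall to the level of the AT-poor peaks within about 100 bp of the summit.

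Within the windows A and T were balanced on the strand of the gene, at 36.0% A and 36.9% T. T outnumbered A in 247 windows and A outnumbered T in 235. The longest run of A or T had a median of 12 bp, the same as in AT-rich start windows without a peak, and 7 bp in AT-poor windows. A single-base run of 7 or more A or T was present in 95 windows (18.7%), against 20 AT-poor windows (5.31%) and 16.5% of the 3823 unbound AT-rich windows. Lower-case bases of the RefSeq genome, which mark repeats and low-complexity sequence, covered a median of 33.7% of the AT-rich windows and 0% of the AT-poor ones. The part of such sequence in read placement, and so in the signal, was not tested.

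Across all non-divergent promoter peaks the median signal was lowest at low AT share, but within the AT-rich class it followed the AT share only weakly. Under 50% A or T, promoter peaks had median signals of 38.3 in replicate 1 and 41.7 in replicate 2, and from 60 to 65% they had 56.5 and 58.2. The 143 AT-rich peaks from 65 to 70% had 69.6 and 74.2, the 197 from 70 to 75% had 72.1 and 71.3, the 121 from 75 to 80% had 80.5 and 75.8, and the 46 with 80% or more had 104.9 and 107.5. Within the class the 3 lower bins differed little, and in replicate 2 the bin from 70 to 75% lay below that from 65 to 70%. Across the 507 peaks, the rank correlation of AT share with pooled signal was 0.157, and in the own sets it was 0.107 in replicate 1 and 0.0859 in replicate 2. The share in both replicates was 56.6% from 65 to 70% (interval 48.5 to 64.5%) and 71.7% from 80% up (interval 57.5 to 82.7%), and these intervals overlap. In the replicates' own sets the medians of the 4 bins, from low to high AT share, were 84.1, 89.2, 99.2 and 100.7 in replicate 1 and 90.2, 84.5, 85.1 and 103 in replicate 2, so the replicates did not share one order.

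**Figure D4:**
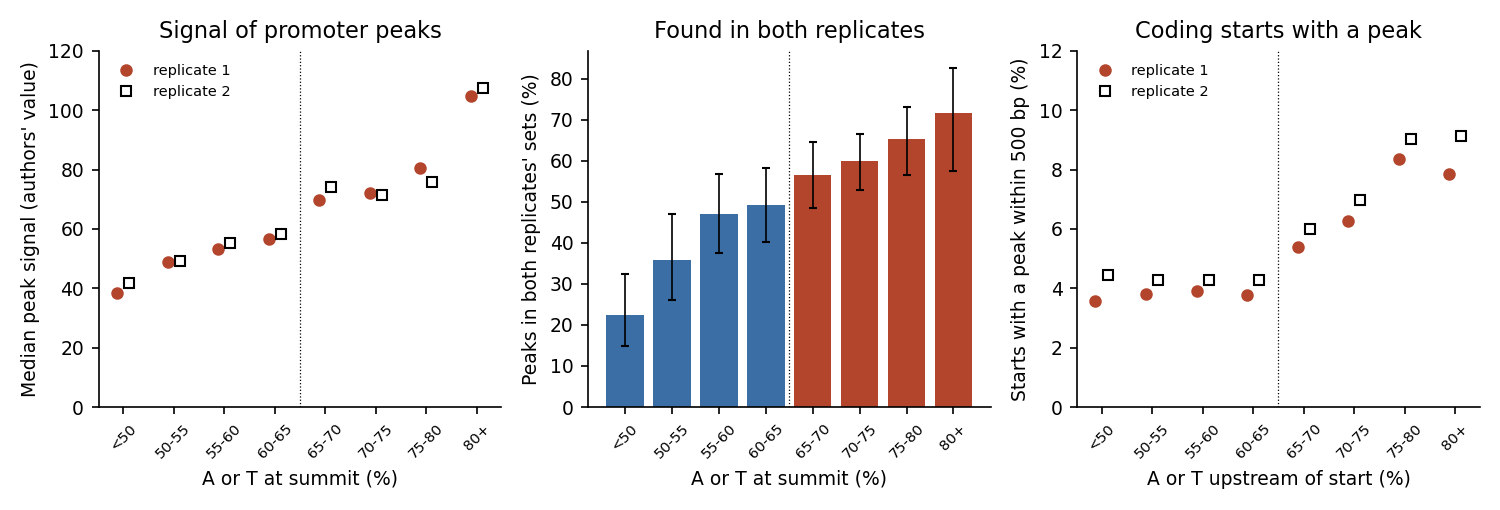
Promoter peaks and coding starts by AT share of the window, with the dotted line at 65%. The left panel gives the median signal per replicate, the middle one the share of peaks in both replicates' sets with 95% Wilson bars, and the right one the share of non-divergent coding starts with a peak of each replicate's own set within 500 bp. The bins below 65% lie under those above it for both signal and the share in both sets, the 2 bins from 65 to 75% have about the same signal, and the share of starts with a peak is flat below 65% and higher above it.

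Many peaks lay right at the threshold. The 29 AT-rich peaks at the lowest share held 65.3% A or T and the 30 AT-poor peaks at the highest share held 64.4%, 1 base apart. The strongest of those just inside were PNPase, Fhos, a formin (267 ± 3.36), and scramb2, a scramblase (170 ± 10.1). The strongest of those just outside were Sesn, a sestrin (383 ± 48.7), CG9399 (277 ± 3.56) and Sdb (178 ± 2.51). At the other end, tst, an RNA helicase, held 88.1% and averaged 235 ± 15.2. CG31550 held the same share but averaged 72.2 ± 15.9. Mkp3, a phosphatase of MAP kinases, held 85.1% and averaged 96.3 ± 15.3.

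Most AT-rich promoters had no peak. A window 160 bp upstream, the median position of the summits, was AT-rich at 4346 of 9431 non-divergent autosomal coding starts (46.1%). Of these, 265 (6.10%) had an AT-rich peak within 500 bp, and 400 (9.20%, interval 8.38 to 10.1%) had any pooled peak, against 299 of 5085 other starts (5.88%, interval 5.27 to 6.56%) and a background of 7.41% over all these starts. In the own sets of the replicates, 6.89 ± 0.504% of AT-rich starts and 4.04 ± 0.403% of the other starts had a peak (SD, n = 2). The 4 bins below 65% lay between 4.01 and 4.08%. Above the threshold the share was 5.69 ± 0.419% from 65 to 70%, 6.62 ± 0.507% from 70 to 75%, 8.69 ± 0.472% from 75 to 80% and 8.48 ± 0.895% above that. The last 2 bins did not differ beyond the spread between replicates.

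The common motifs occurred at rates close to those of AT-rich promoter DNA without a peak. Of 18 motifs sought as exact letters on both strands, the TATA box (TATAAA) was in 155 of 507 windows (30.6%, interval 26.7 to 34.7%), against 28 AT-poor windows (7.43%), 30.9% of the 3823 unbound AT-rich windows and 18.4% of all 9431 start windows. It was on the strand of the gene in 96 windows and on the other in 94. The homeodomain core (TAATTA) was in 72 windows (14.2%), against 14.4% of unbound AT-rich windows and 9.29% of all start windows. A run of 7 A (AAAAAAA) was in 18.7%, against 10.5% of all start windows. TATATTAA was in 28 windows (5.52%), against 4.45% of unbound AT-rich windows, within the interval of 3.85 to 7.87%, and 2.22% of all. The TA repeat (TATATATA) was in 14 windows (2.76%, interval 1.65 to 4.58%), against 4.26% of unbound AT-rich windows (interval 3.67 to 4.95%) and 2.21% of all. These AT-rich letters can overlap each other in the same bases.

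Some motifs of known promoter factors were in few AT-rich windows and others were at about their background share. The DNA replication-related element (TATCGATA) was in 4 windows (0.789%), against 13 AT-poor windows (3.45%) and 1.05% of unbound AT-rich windows. Its share was not below that of all start windows, 0.710%. CAGCTG, an E-box, was in 5 windows (0.986%), against 19 AT-poor windows (5.04%) and 1.39% of unbound AT-rich ones. All start windows had it in 3.88%. The ZIPIC core (AGGGCTG) was in 0 windows, against 12 AT-poor windows (3.18%), 0.0523% of unbound AT-rich windows and 0.329% of all start windows. CGATAN, a core read by BEAF-32 that the replication-related element contains, was in 59 windows (11.6%), against 12.2% of unbound AT-rich windows and 12.7% of all. The initiator (TCAGTT) was in 33 windows (6.51%), against 5.91% and 6.15%. Such a match is a description of letters and not a site.

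Short words of sequence that were frequent at the peaks of some arms were not so on the others. Among 667 6-mers ranked on 2L and 3L, the 20 with the highest share in AT-rich peaks over unbound AT-rich windows had a median ratio of 2.19 there. On the other autosomal arms the same 20 had a median ratio of 1.04, and 11 of them were above 1. Ranking on the first arms made the high ratio there, so only the second value describes the peaks.

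The peaks lay near the starts of 571 genes, 493 of them protein-coding. That is 4.19% of the 11772 autosomal protein-coding genes, the background for the gene lists, and 2.11% of the 3692 non-coding ones (78 genes). The 11772 include 23 genes on Y. The coding background includes genes in divergent pairs, although the rule leaves out peaks between their starts. A list with many such genes can have a lower share for that reason alone, which was not tested. A single gene had a start within 500 bp at 418 peaks (82.4%), and 89 peaks had 2 or more genes in reach, so the gene served cannot be named from position there.

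The 4 large autosomal arms had similar shares and signals, while 3R had fewer AT-rich peaks for its genes. AT-rich peaks made up 126 of 216 non-divergent promoter peaks on 2L (58.3%), 127 of 224 on 2R (56.7%), 129 of 211 on 3L (61.1%) and 124 of 232 on 3R (53.4%), with overlapping intervals. Per 1000 protein-coding genes there were 47.4 on 2L, 44.5 on 2R, 47.1 on 3L and 36.2 on 3R. The median pooled signal per arm ran from 140 on 3R to 153 on 3L. Chromosome 4 had 1 such peak and Y had 0.

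Of 40 gene lists, glycolysis had the highest share, with 4 of 10 genes (40.0%, interval 16.8 to 68.7%), against the background of 4.19%. Enolase (Eno) had 168 and 140 (154 ± 19.4), lactate dehydrogenase (Ldh) 100.7 and 107 (104 ± 4.43), phosphoglycerate kinase (Pgk) 86.3 and 110.3 (98.3 ± 17.0) and pyruvate kinase (PyK) 68.2 and 69.9 (69.0 ± 1.18). All 4 were in both replicates' own sets, and their summits lay upstream, at most 304 bp from the start. These are late steps of the pathway and the branch to lactate. The PyK window was AT-rich only at the pooled summit. At the summits of replicates 1 and 2 it held 54.5 and 53.5% A or T. The list is short, so the interval is wide, and it was the highest of 40 lists chosen with earlier results of these data known.

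Regulators of the embryo had peaks at scattered genes. Of 27 dorsoventral and mesoderm genes, 3 had one (11.1%, interval 3.85 to 28.1%), against the background of 4.19% over all autosomal protein-coding genes. They were tin, a homeobox gene of the heart and visceral mesoderm (204.8 ± 38.2), cact, the inhibitor that holds Dorsal in the cytoplasm (106 ± 8.17), and stumps, an adaptor of fibroblast growth factor receptors (60.9 ± 13.0). All 3 were in both own sets. Of 33 Hox and segmentation genes (3.03%) only bcd, the maternal anterior determinant, had one (69.9 ± 3.43). The Notch list had 3 of 22 (13.6%, interval 4.75 to 33.3%), among them E(spl)mdelta-HLH, a repressor induced by the pathway (45.3 ± 5.61). Of 47 genes with transcription factor family names 6 had a peak (12.8%, interval 5.98 to 25.2%). They included REPTOR, which acts downstream of TOR signalling (297 ± 7.76), Xbp1 of the unfolded protein response (120 ± 19.3) and Eip75B, a nuclear receptor induced by ecdysone (71.3 ± 17.6). Eip63F-1 is counted in that list by its name only, since it encodes a calcium-binding protein.

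The peaks at stress and chromatin genes ranged from strong to weak. Hsp27, a small heat shock protein, had 361 and 327 (344 ± 24.3), and Hsp26 had 47.8 and 77.9 (62.9 ± 21.3). Their list had 3 of 35 genes (8.57%, interval 2.96 to 22.4%), against the background of 4.19%. Of 35 chromatin modifiers 3 had a peak (8.57%, with the same interval). They ran from row, a zinc finger protein (146 ± 25.04), down to Chd3, a chromatin remodeller (34.6 ± 7.81), which was in neither own set. The other gene, Sirt1, shared its peak with DnaJ-H of the heat shock list, so that site counted in both lists. Of 16 insulator and promoter-binding proteins 2 had one, BEAF-32 (84.1 ± 8.06) and pita (48.1 ± 9.33), and pita was in neither own set. In other lists, RnrS, the small subunit of ribonucleotide reductase, averaged 147 ± 10.9, papi, a Tudor-domain protein of the piRNA pathway, 220 ± 15.7, and sls, the titin-like muscle protein, 154 ± 20.7.

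Ribosomal protein genes had AT-rich peaks at about the background rate. They lay at 3 of 72 cytoplasmic ribosomal protein genes (4.17%, close to the background of 4.19%), namely RpL10Ab, RpL23 and RpS27A, and none of these was in both own sets. Each of the 3 peaks overlapped another pooled peak, with another summit 200 to 241 bp away. The peak at RpS27A had a pooled signal of only 12.9 and no matched summit in either replicate. AT-poor peaks lay at 19 of the 72, against 3.13% of all autosomal protein-coding genes. The mitochondrial ribosomal list had only mRpL41 among 63 genes (1.59%). No AT-rich peak lay near a start of 117 cuticle protein genes, 161 odorant and gustatory receptor genes, 111 replication-dependent histone genes, 75 oxidative phosphorylation genes, 42 proteasome genes or 202 microRNA genes. In all, 13 lists had no gene with an AT-rich peak. For the shorter ones the upper Wilson bound lies above the background share (8.38% for the proteasome list). It lies below for the receptor, histone and cuticle lists (2.33, 3.35 and 3.18%). These bounds treat the genes of a list as independent, and the rule leaves out peaks between divergent starts. They therefore cannot show a lack of binding at such genes.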

How the data were processed

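ChIP-seq peak lists of 2 biological replicates were used. Coordinates are on dm6, per the labels, and no source used here names the aligner or peak caller. The authors deposited, per replicate and for the pooled replicates, all ranked peaks and those passing a threshold on the irreproducible discovery rate, and a conservative pooled pair. The signal column the authors deposited has no stated unit or normalization. Summits were the peak start plus the deposited summit offset. The 2 pooled ranked lists hold 16 unnamed columns, which were not used.

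Gene starts came from Ensembl release 115 (18277 genes on the arms, 13968 protein-coding), and sequence and gene products from NCBI RefSeq. Replicate signals were matched by overlap with summits within 100 bp. Being in both replicates needed 1 bp of overlap with each thresholded set. With 1 group no test was made; the text gives counts, medians, SDs over the 2 replicates and 95% Wilson intervals, which cover counting error over peaks or genes only. Read depth is unknown.

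Genes were named by rule: the 20 highest mean signals among peaks in both own sets, up to 4 per list, 3 just inside and 3 just outside the AT threshold, 3 with the highest AT share and 3 whose replicates differed most. Of each list the text prints part of those. Members, lists and motifs were chosen with earlier results of these data known, and the distance bands and the windows shown were added after the data were seen. In the lists, 76 symbols were not matched to an autosomal gene. Distances, overlaps and membership were tested on simulated data. Alternatives were other peak sets, AT shares, windows, promoter distances, starts and overlaps. Python 3.11.15, numpy 2.4.6, pandas 2.3.3, scipy 1.17.1 and matplotlib 3.10.9 were used.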

Additional observations from a re-analysis of the deposited data

How the results depend on the processing

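The ratio of median signals stayed above 1 under each alternative that was run. The upstream share stayed above that of AT-poor peaks, but at a promoter distance of 100 bp only by 71.8% against 70.5%. The other values below are counts or shares given without a comparison class under the alternatives. Within the class, the signal medians did not rise from bin to bin with AT share in the own set of replicate 2. They did not do so in the pooled set either, with 139.5 from 65 to 70% and 139.4 from 70 to 75%. The count of 507 AT-rich peaks, near 493 protein-coding genes, became 331 and 327 among the pooled peaks at or above the median signal, and 85 and 79 with a promoter distance of 100 bp. Without 1 replicate it was 375 to 404, and 376 to 396 genes. The ratio of median signals, 1.51, was 1.42 in the conservative set, 1.30 among the peaks at or above the median signal, 1.44 at 70% A or T, 1.46 with a 51 bp window, 1.37 with a window of 100 bp to each side and 1.30 with a promoter distance of 100 bp. It was 1.33 to 1.39 without 1 replicate, and 1.47 without peaks that overlap another pooled peak, an alternative chosen after seeing the data. The share in both replicates, 61.3%, was 88.5% among the peaks at or above the median signal, 54.1% at 100 bp and 77.7 to 83.7% without 1 replicate. Among the peaks at or above the median signal, and in each own set, the weaker peaks are removed by construction. Without 1 replicate, every peak is also in 1 own set already. The value is then only the share that overlaps the other set, and is not the same measure as the 61.3%. The upstream share, 85.2%, was 82.6% with a 51 bp window, 71.8% at 100 bp, 75.4% at 1000 bp, 88.5% with protein-coding starts only and 85.6 to 88.3% without 1 replicate. The share with a TATA box, 30.6%, was 36.5% at 70% A or T and 32.8 to 33.2% without 1 replicate. Where no construction is named, the cause was not tested. The number of 2 replicates and the unknown read depth limit how small a difference can be read, and the control library was not analysed here. No paired analysis was possible because there is only 1 group.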

Other observations

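Of the 507 AT-rich promoter peaks, 49 had a nearest start of a non-coding RNA gene (9.66%), against 34 of 377 AT-poor peaks (9.02%). Long non-coding RNA genes had such a peak at 47 of 1705 (2.76%), against a background of 2.11% over all non-coding genes. Of the 50 peaks near them, 30 were in both replicates' own sets, a share close to the 61.3% of the whole class. Antisense RNA genes had one at 18 of 433 (4.16%). Strong ones were at lncRNA:CR46036, an intronic site with 310 in replicate 1 and 305 in replicate 2 (307 ± 3.295, SD, n = 2), and at lncRNA:CR44149 (304 ± 14.2). Many of these sites also lie within reach of a protein-coding start, and the lists do not tell which gene a peak belongs to.

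Split by pooled signal into 4 parts, the AT-rich peaks of the strongest part (127 peaks, 242 to 2034) were upstream of the start in 91.3%. Those of the weakest part (127 peaks, 3.09 to 94.6) were upstream in 80.3%. The parts between had 86.6% (signal 94.9 to 146) and 82.5% (signal 146 to 238), so the share did not rise steadily with signal. The mean AT share was 74.1 ± 4.93% in the strongest part and 72.0 ± 4.50% in the weakest (SD over peaks), and the flanks averaged 56.6 ± 7.34% and 58.7 ± 6.49%. The differences between the parts were not tested.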
